A study of Mus musculus with 12 samples.

Results

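The mitochondrial ribosomal protein genes were taken as every protein-coding gene whose mouse symbol is Mrpl or Mrps followed by a number, which gave 77 genes (48 Mrpl and 29 Mrps) of the 43432 gene identifiers listed. The 5 pseudogenes that carry a member name were left out, and Mrpl33 is not analysed here. Adult neural stem cells (NSCs) had been isolated from WT male C57BL/6 mice aged 6 to 8 weeks, from the SVZ, the germinal layer that lines the lateral ventricles, and were grown as a monolayer with EGF and bFGF. They were kept for 4 days in low folic acid (LF, 1.5 µM), medium folic acid (MF, 10 µM, the control concentration) or high folic acid (HF, 80 µM). For polysome fractionation the cultures were then briefly incubated with cycloheximide to stabilize ribosomes. The paper describes this step for polysomes and does not mention it for total mRNA. At each concentration poly(A) RNA was sequenced from polysomes, the sucrose gradient fractions with more than 3 ribosomes per mRNA, and from whole cells (total mRNA), in duplicate, so that 12 libraries formed 6 groups of 2. The sources do not say whether the duplicates came from separate animals or cultures, so the p-values below measure only the spread between these libraries.

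Mitochondria keep a ribosome of their own, the mitoribosome, which translates the few mRNAs of mitochondrial DNA, all of them for subunits of the respiratory chain and the ATP synthase. The ribosomal RNAs of this ribosome are made inside the organelle, but its proteins are encoded in the nucleus, translated on cytosolic ribosomes and imported. The polysome libraries therefore report the share of mitochondrial ribosomal protein mRNAs among mRNAs in the polysome fractions, not what the mitoribosome itself was translating. Mrpl proteins belong to the large subunit and Mrps proteins to the small one, with exceptions in the naming: Mrps30 and Mrps18a sit in the large subunit, and Mrps36 is now known as a component of the 2-oxoglutarate dehydrogenase complex.

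The libraries held 24193468 to 28170296 counts (polysome) and 20506797 to 23593252 counts (total mRNA). All 77 genes had counts in all 12 libraries, from 19 to 9107 per gene, and all 77 passed the low-count filter of every fit. Together they took 0.449% ± 0.0155 of the counts in polysome libraries and 0.251% ± 0.00489 in total mRNA libraries (SD, n = 6 each), with ranges of 0.431% to 0.468% and 0.242% to 0.255% that did not overlap. All 10 NSC markers reached 1 TPM on average, as did 4 of 7 neuron markers (summed level 51.0 to 101 TPM in polysome and 155 to 171 TPM in total mRNA), 2 of 5 astrocyte markers (146 to 210 TPM and 170 to 203 TPM) and 5 of 7 mural and fibroblast markers (343 to 654 TPM and 249 to 390 TPM). Of the lists with lower sums, 2 of 6 oligodendrocyte, 2 of 6 microglia, 1 of 4 ependyma and 0 of 5 endothelium markers reached 1 TPM, none of these lists summing to more than 13.5 TPM in any library. Their levels were uneven: Tmem119 (microglia) had a median of 5.69 TPM, whereas Aif1, Csf1r, Cx3cr1, Ptprc, Mag, Mog, Sox10, Cdh5 and Cldn5, with Rbfox3 (neurons), Gjb6 (astrocytes) and Rgs5 (mural cells), were under 0.1 TPM on average. Since cells were measured in bulk, a lower level can mean fewer cells of a type or less RNA per cell, which cannot be told apart.

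In total mRNA the mitochondrial ribosomal protein genes were mostly expressed at moderate levels, with a few far above or below. TPM is a share of all transcripts in a library and corrects for transcript length, so levels of different genes can be compared on this scale. The median of the 77 means was 53.7 TPM (quartiles 37.0 to 87.0), and 63 genes lay between 20 and 120 TPM. For comparison, the median was 1380 TPM over 83 cytosolic ribosomal protein genes, 152 TPM over 36 nuclear-encoded subunits of respiratory complex I, and 26.0 TPM over the 11694 protein-coding genes with at least 1 TPM. Mrpl genes (median 58.2 TPM) and Mrps genes (median 46.7 TPM) had overlapping quartiles.

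The 4 highest genes were Mrps6 at 499 ± 43.8 TPM, Mrpl17 at 337 ± 16.2 TPM, Mrps21 at 321 ± 10.7 TPM and Mrpl42 at 204 ± 9.88 TPM (SD, n = 6 total mRNA libraries). Mrps6 was above Mrpl17 in every total mRNA library, Mrpl42 was below both Mrpl17 and Mrps21 in every one, and Mrpl17 and Mrps21 overlapped. The 4 lowest were Mrpl1 at 12.2 ± 0.906 TPM, Mrpl35 at 10.8 ± 1.2 TPM, Mrpl57 at 6.76 ± 0.555 TPM and Mrpl23 at 5.88 ± 2.04 TPM. The values of Mrpl1 and Mrpl35 overlapped, as did those of Mrpl57 and Mrpl23. Mrpl17 is a protein of the polypeptide exit region of the large subunit, whereas Mrpl57 is a small protein found only in mitochondrial ribosomes.

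The low value of Mrpl23 has to be read with its copy. Mrpl23 lies at chr7:142532686-142540747 (plus strand, mm10), and a processed pseudogene, Mrpl23-ps1, lies at chr2:74591330-74591909 (minus strand). The Mrpl23 transcript of 692 bases and the Mrpl23-ps1 transcript of 580 bases share an identical run of 540 bases, which is 78.0% of the Mrpl23 transcript and 93.1% of the Mrpl23-ps1 transcript. The first 60 bases of the coding sequence, from GENCODE M21 transcripts on mm10, are shown because no read within them can tell the gene from its copy; capitals mark bases identical in both.

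Mrpl23: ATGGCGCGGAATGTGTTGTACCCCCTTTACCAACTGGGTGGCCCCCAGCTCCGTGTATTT
Mrpl23-ps1: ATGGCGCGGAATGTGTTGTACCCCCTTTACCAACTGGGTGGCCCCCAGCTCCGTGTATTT

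Mrpl23-ps1 held 94.2% of the mean counts that RSEM gave to both. Its level was 187 and 163 TPM at LF, 209 and 194 TPM at MF and 219 and 184 TPM at HF in polysomes, against 94.0 and 96.5 TPM, 106 and 108 TPM, and 101 and 109 TPM at the same concentrations in total mRNA. How the counts were divided between the 2 loci is uncertain, and Mrpl23 on its own is reported as uncertain here. The sum of both was 167 to 232 TPM in polysomes and 101 to 113 TPM in total mRNA, which places the summed level above the family median.

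Near copies mattered less for the other genes. At least 95% identity over at least 50% of the longest open reading frame was found for 19 of the 77 genes, 15 of them with the copy in the tables, but the copy held over 10% of the counts of both in only 3 cases. Besides Mrpl23 these were Mrpl53, whose coding sequence lies whole within the same-strand gene model Gm42688 (18.8% of the counts of both), and Mrpl43, which overlaps Twnk, the mitochondrial DNA helicase gene, on the opposite strand (58.4%). The span of 41 genes overlapped another annotated gene, on the same strand for 12.

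The first question was how these mRNAs were distributed between polysomes and the whole cell. Mitochondrial ribosomal protein mRNAs were enriched in polysomes as a family: 70 of 77 were higher in polysome than in total mRNA over the 3 concentrations, by edgeR and by DESeq2 alike, and 0 were lower by either tool or by an unadjusted edgeR p under 0.05. A call required a Benjamini-Hochberg adjusted p under 0.05 over all 14421 genes tested and a change of more than 1.2-fold, in edgeR's quasi-likelihood test. By the same rule edgeR called 32.7% of all genes higher and 38.4% lower, and DESeq2 34.3% and 37.2%. The median log2 fold change of polysome over total mRNA was 0.94 for the 77 genes (quartiles 0.62 to 1.13), against -0.09 for all genes tested and -0.02 for the 12998 protein-coding genes. The ratio compares shares of 2 kinds of library and not ribosomes per mRNA.

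**Figure D1:**
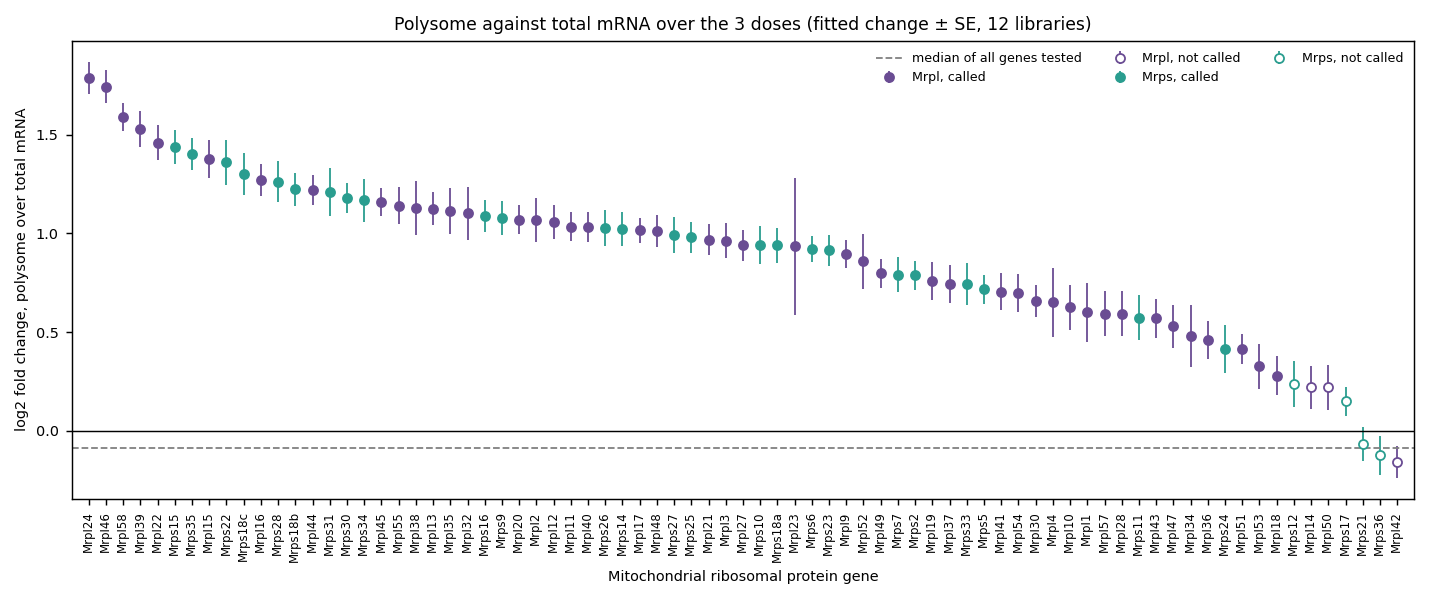
Log2 fold change of polysome over total mRNA (y axis; point: fitted change over the 3 concentrations, bar: SE, 12 libraries) for each of the 77 mitochondrial ribosomal protein genes, with called genes as filled points. The genes run without a break between Mrpl24 at 1.79 and Mrpl42 at -0.16, and 74 lie above 0.

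Read library by library the same picture held. On CPM, counts scaled to library size with edgeR's TMM factors, all 6 polysome libraries were above all 6 total mRNA libraries for 60 of the 77 genes, against 22.8% of all genes tested, and no gene had all 6 below, against 29.5% of all genes. The remaining 17 genes overlapped between the fractions. The median log2 ratio over the 77 genes was 0.87 and 0.91 in the LF libraries, 0.96 and 0.90 in the MF libraries and 0.98 and 0.92 in the HF libraries, each polysome library being set against the mean of the total mRNA libraries of its concentration. Taken from the deposited TPM, the median over the 77 genes was 0.69 in place of 0.94, and that over all genes -0.39 in place of -0.10, so both moved down by a similar amount; 71 genes then lay above 0 in place of 74.

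Genes with Mrpl names and genes with Mrps names both took part. Of the 48 Mrpl genes 45 were called higher (median 0.94), and of the 29 Mrps genes 25 (median 0.98). The 8 genes with the highest fold changes were Mrpl24, Mrpl46, Mrpl58, Mrpl39, Mrpl22, Mrps15, Mrps35 and Mrpl15, at log2 1.79 to 1.38. Of the family 34 genes exceeded a log2 of 1, and the share of all genes above it was not counted.

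Mrpl24, a protein near the polypeptide exit of the large subunit, had 245 and 287 TPM at LF, 228 and 228 TPM at MF and 322 and 368 TPM at HF in polysomes, against 113 and 102 TPM, 102 and 104 TPM, and 100 and 101 TPM in total mRNA. Every polysome library was above every total mRNA library, and the HF polysome libraries were the highest. Its fold change over the 3 concentrations was log2 1.79 ± 0.0816 (SE, edgeR adjusted p = 3.79e-08), or 3.46-fold.

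Mrpl46, a large subunit protein, had 60.9 and 61.9 TPM at LF, 71.1 and 66.8 TPM at MF and 79.6 and 82.7 TPM at HF in polysomes, against 26.2 and 23.3 TPM, 24.0 and 26.2 TPM, and 27.7 and 27.5 TPM in total mRNA. The fractions were far apart, at log2 1.74 ± 0.0823 (SE, edgeR adjusted p = 4.46e-08). Mrpl58, also called Ict1, is a peptidyl-tRNA hydrolase built into the large subunit that can release stalled mitoribosomes. It had 193 and 177 TPM at LF, 185 and 199 TPM at MF and 188 and 186 TPM at HF in polysomes, against 80.6 and 78.5 TPM, 78.8 and 78.6 TPM, and 71.8 and 81.3 TPM in total mRNA. The ratio was log2 1.59 ± 0.0701 (SE, edgeR adjusted p = 3.06e-08), with little difference between concentrations in either fraction.

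Members with a known particular role lay on both sides of the family median. In the large subunit, Mrpl12, the stalk protein, was at log2 1.06, and Mrpl44, which carries a double-stranded RNA binding fold and is a human cardiomyopathy gene, at 1.22. Mrps30 was at 1.18 and Mrps18a at 0.94, both large subunit proteins despite their names. In the small subunit, Mrps18b was at 1.22, Mrps18c at 1.3 and Mrps34, needed for small subunit stability, at 1.17. All 7 were called higher, as was Mrpl57 at 0.59. The Mrps18 genes code for relatives of a single bacterial protein.

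The 7 genes not called in polysome against total mRNA were Mrps12 (0.24), Mrpl14 (0.22), Mrpl50 (0.22), Mrps17 (0.15), Mrps21 (-0.07), Mrps36 (-0.12) and Mrpl42 (-0.16), with edgeR adjusted p of 0.0897 to 0.516. The 4 most abundant mRNAs of the family were therefore split: Mrps6 and Mrpl17 were higher in polysomes, at 0.92 and 1.02, while Mrps21 and Mrpl42 were not called.

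Mrps21, a small subunit protein and the shortest coding sequence of the family, had 271 and 199 TPM at LF, 258 and 285 TPM at MF and 303 and 234 TPM at HF in polysomes, against 338 and 315 TPM, 322 and 321 TPM, and 324 and 306 TPM in total mRNA. All polysome values were below all total mRNA values on the TPM scale, whereas the TMM-scaled fold change was -0.07 ± 0.087 (SE, edgeR adjusted p = 0.516). Mrpl42 had 189 and 175 TPM at LF, 131 and 139 TPM at MF and 147 and 119 TPM at HF in polysomes, against 198 and 210 TPM, 192 and 199 TPM, and 220 and 203 TPM in total mRNA. Its LF polysome libraries were the nearest to total mRNA, and at HF alone it was called lower in polysomes, at -0.36 ± 0.141 (SE, edgeR adjusted p = 0.049). That call was lost under most alternatives, whose adjusted p ran between 0.00753 and 0.309.

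Mrps36, the 2-oxoglutarate dehydrogenase component, had 65.6 and 75.4 TPM at LF, 51.4 and 42.4 TPM at MF and 41.0 and 37.1 TPM at HF in polysomes, against 70.5 and 69.8 TPM, 73.3 and 63.0 TPM, and 63.4 and 66.3 TPM in total mRNA. On the TPM scale the fractions overlapped at LF and lay apart at MF and HF. On TMM-scaled CPM the polysome values of Mrps36 were above total mRNA at LF (18.2 and 21.9 against 16.4 and 16.8). They overlapped total mRNA at MF (15.2 and 12.2 against 16.8 and 14.9) and were below it at HF (12.1 and 10.9 against 15.1 and 15.9). Mrps12, the decoding-centre protein whose bacterial relative carries streptomycin resistance mutations, had 41.5 and 43.3 TPM at LF, 35.5 and 49.2 TPM at MF and 39.6 and 34.1 TPM at HF in polysomes, against 26.1 and 33.7 TPM, 37.0 and 29.6 TPM, and 31.7 and 27.6 TPM in total mRNA. Its replicates at MF differed as much as the fractions did.

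Enrichment was present at each concentration. At LF 60 genes were called higher and 1 lower (25.0% and 28.5% of all genes), at MF 67 higher and 0 lower (26.0% and 29.3%) and at HF 61 higher and 1 lower (25.7% and 30.7%), with medians of 0.90, 0.92 and 0.92. At all 3 concentrations 55 genes were called higher. The matching share of all genes was not counted, but it cannot exceed the 25.0% called higher at LF. At MF no gene was lower by an unadjusted edgeR p under 0.05 or by DESeq2 either. The genes called lower were Mrpl42 at HF and Mrpl14 at LF, the second at -0.60 ± 0.192 (SE, edgeR adjusted p = 0.0231). Without the second LF polysome library Mrpl14 was at -0.37, and without the second LF total mRNA library at -0.447. Neither of these fits kept the call. Without the first LF polysome library it was at -0.822, and without the first LF total mRNA library at -0.725. The Mrpl14 call was also lost with the 4 LF libraries alone (edgeR adjusted p = 0.188) and with no low-count filter (edgeR adjusted p = 0.0503). The call held by DESeq2 (adjusted p = 0.00641), with other size factors and with a replicate block. Fitted on the 4 LF libraries alone, 36 genes were called higher at LF, against 11.5% of all genes in that fit.

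**Figure D2:**
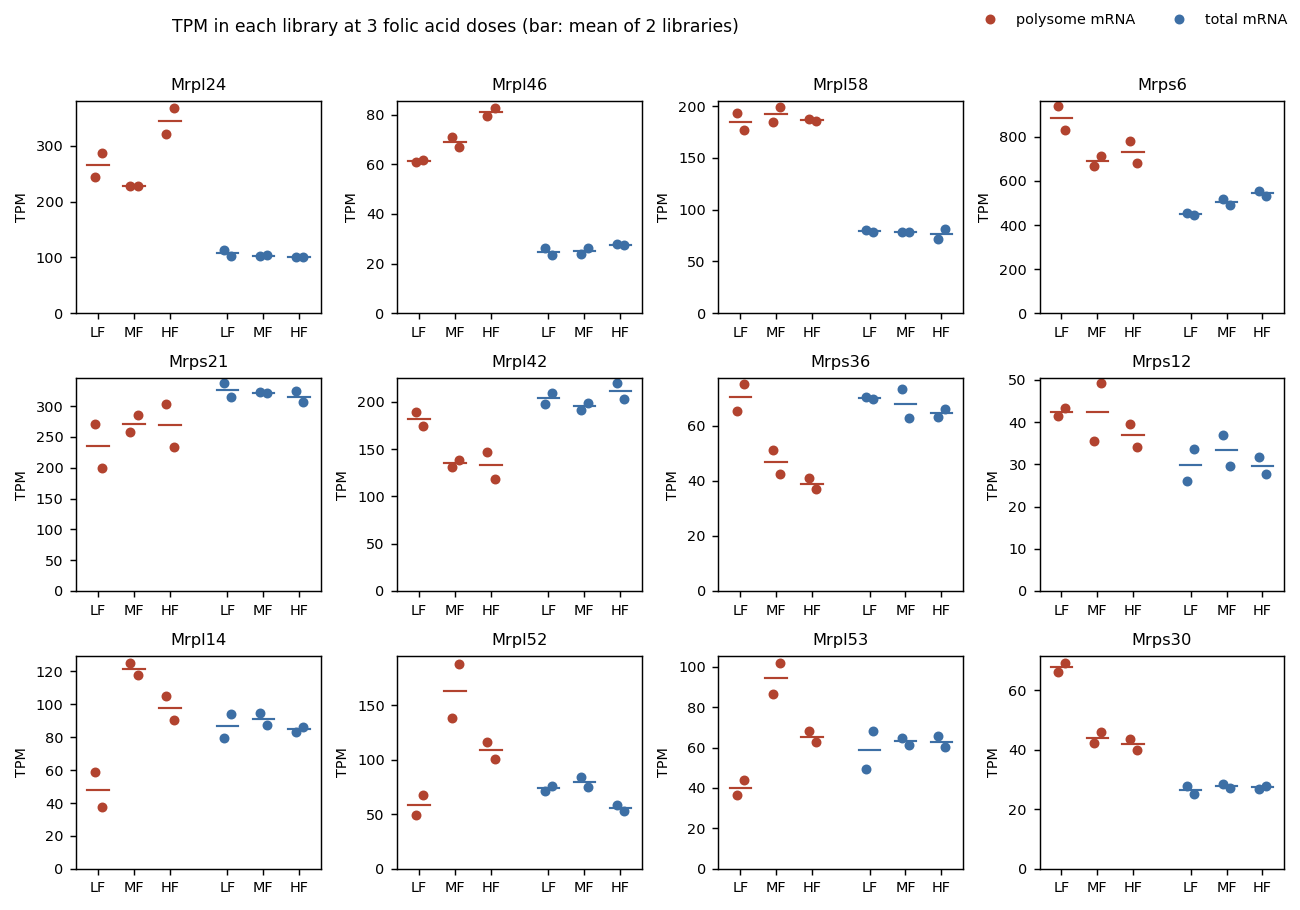
TPM (y axis, from 0) of 12 mitochondrial ribosomal protein genes in each library at LF, MF and HF, polysome mRNA left and total mRNA right, with a bar at the mean of the 2 libraries. Mrpl24, Mrpl46 and Mrpl58 show polysome values at or above 60.9 TPM that clear total mRNA at every concentration, while Mrps21, Mrpl42 and Mrps36 do not, and Mrpl14 falls below total mRNA at LF only.

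Within the family, genes with longer coding sequences had higher ratios. The coding sequences were short, with a median of 588 bases (261 to 1326) against 1428 bases for protein-coding genes tested. The median log2 fold change of polysome over total mRNA was 0.47 for the 12 genes of up to 400 coding bases, 0.94 for the 28 of 401 to 600, 1.02 for the 22 of 601 to 900 and 1.13 for the 15 above 900. Spearman's rho between ratio and coding length was 0.49 across the 77 genes, given as a description because they share libraries and are not replicates. Over 12998 protein-coding genes rho was -0.45, of the opposite sign. The 3 genes below 0 had 261 (Mrps21), 306 (Mrps36) and 426 (Mrpl42) coding bases.

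**Figure D3:**
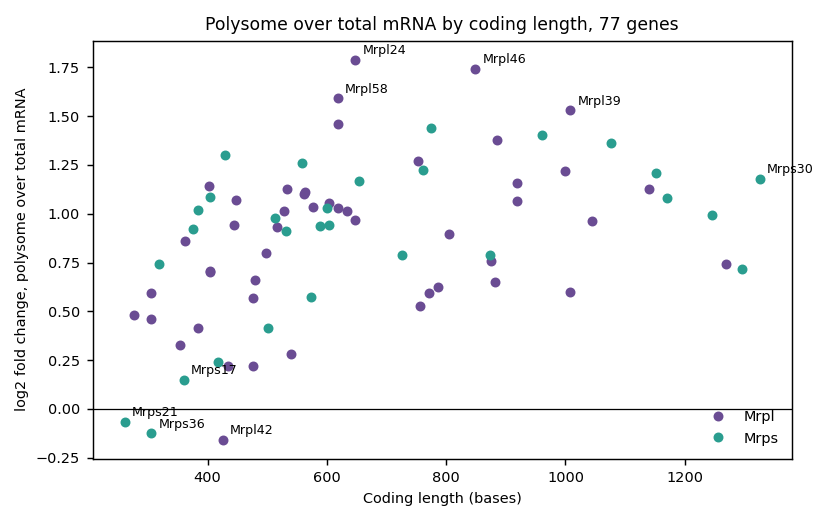
Log2 fold change of polysome over total mRNA over the 3 concentrations (y axis) against coding length in bases (x axis) for 77 genes, Mrpl and Mrps in separate colours. The values climb among the shortest genes, with medians of 0.47 up to 400 bases and 0.94 at 401 to 600 bases, and go on to 1.02 at 601 to 900 bases and 1.13 above 900.

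Other parts of the mitochondrial translation system were set beside the family. Among the 5 mitoribosome proteins with other names, Aurkaip1 (1.49), the GTP-binding protein Dap3 (1.35), Gadd45gip1 (1.35) and Chchd1 (0.84) were called higher in polysomes and Ptcd3 (0.05) was not. Of 25 mitoribosome assembly factors 20 were higher and 1 lower (median 0.86), led by the GTPase Mtg1 (1.98), the ribosomal RNA methyltransferase Mrm3 (1.96) and Mterf4 (1.60), with Fastkd2 at -0.40. Of 14 factors that act on mitochondrial translation 9 were higher and 2 lower (median 0.71): the elongation factor Tufm was at 1.23 and the recycling factor Mrrf at 1.14, against -1.83 for Guf1 and -0.74 for the initiation factor Mtif2.

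Complex I subunit genes had 34 of 36 higher (median 0.80), and cytosolic ribosomal protein genes had 58 of 80 higher and 9 lower (median 0.58). The 13 mRNAs that mitoribosomes translate, which are made and translated inside the organelle, ran the other way: 11 were lower in polysome libraries and none was higher (median -2.96), with mt-Nd5 at -3.76. They took 0.299% to 0.943% of the counts in polysome libraries and 2.72% to 2.95% in total mRNA libraries. No difference between these lists was tested.

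**Figure D4:**
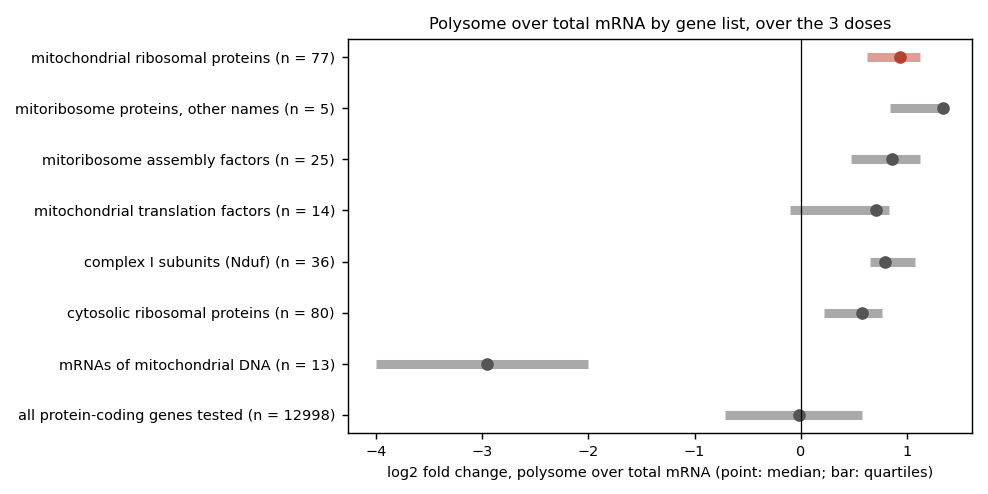
Median (point) and quartiles (bar) of the log2 fold change of polysome over total mRNA over the 3 concentrations (x axis), for mitochondrial ribosomal protein genes and comparison lists (y axis, with the number of genes tested). The 77 genes centre on 0.94, the protein-coding genes on -0.02 and the mRNAs of mitochondrial DNA on -2.96.

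The next question was whether folic acid changed these mRNAs in the whole cell. In total mRNA 1 of the 77 genes was called, in HF against LF only, a share near that of all genes. No gene was called in LF against MF or in HF against MF, where 0.00719% and 0.0863% of the 13912 genes tested were called; DESeq2 also called none (0.0144% and 0.165% of all genes), and 2 and 3 of the 77 genes had an unadjusted edgeR p under 0.05 (6.27% and 6.98% of all genes). In HF against LF, 1 gene was called by edgeR, against 1.79% of all genes, and 1 by DESeq2, against 1.27%. The median log2 fold changes of the 77 genes were -0.01, 0.01 and 0.03 in these 3 comparisons, and within 0.002 of 0 for all genes in each. LF against MF and HF against MF share the MF libraries.

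The gene called was Mrps6, the small subunit protein with the most abundant mRNA of the family. It had 455 and 445 TPM at LF, 518 and 489 TPM at MF and 556 and 532 TPM at HF in total mRNA. The libraries fell in the order of the concentrations and no groups overlapped. Among all genes tested in total mRNA, HF lay wholly above LF for 20.8% and wholly below for 21.4%. The change was log2 0.28 ± 0.0473 in HF against LF (SE, edgeR adjusted p = 0.00268), and lay at -0.15 ± 0.0475 in LF against MF (adjusted p = 0.632) and 0.13 ± 0.0472 in HF against MF (adjusted p = 0.541). Without the first HF total mRNA library it was 0.25 with an edgeR adjusted p of 0.0591, and the call was lost. Mrps6 shares its span and strand with Slc5a3, a myo-inositol transporter gene, which was at 0.21 in total mRNA HF against LF (edgeR adjusted p = 0.191); reads of overlapping exons could be given to either. Beside this change, the 10 NSC markers summed to 7950 to 8580 TPM at HF and 6770 to 6840 TPM at LF in total mRNA, and the 7 mural markers to 249 to 297 TPM at HF and 365 to 390 TPM at LF; their part in it was not tested.

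Polysome mRNA of Mrps6 ran in another order: 940 and 832 TPM at LF, 670 and 713 TPM at MF and 781 and 680 TPM at HF. Both LF libraries were above all MF and HF libraries, although LF was the lowest in total mRNA. The LF against MF change in polysomes was 0.32 ± 0.171 (SE, edgeR adjusted p = 0.359). Translation efficiency (TE), the change in polysome mRNA less the change in total mRNA fitted in 1 model, was 0.48 ± 0.158 (SE, adjusted p = 0.204) in LF against MF and -0.52 ± 0.158 (adjusted p = 0.169) in HF against LF, neither of which passed.

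In total mRNA the members with the smallest p after Mrps6 did not pass. Mrpl52 had 71.7 and 76.0 TPM at LF, 84.4 and 75.3 TPM at MF and 58.0 and 53.2 TPM at HF. Its HF libraries were below the other 4, at log2 -0.49 ± 0.162 in HF against MF (SE, edgeR adjusted p = 0.405). The others were Mrpl38 (-0.20) and Mrpl18 (-0.15) in LF against MF, Mrpl30 (-0.15) in HF against MF, and Mrps34 (0.26) in HF against LF.

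On polysomes no mitochondrial ribosomal protein gene was called between any 2 concentrations, in a background of 0.0223% (LF against MF), 0.0% (HF against MF) and 0.0149% (HF against LF) of the 13433 genes tested. An unadjusted edgeR p under 0.05 was reached by 18, 2 and 16 of the 77 genes (17.3%, 3.37% and 14.0% of all genes), and DESeq2 called 7, 0 and 1, against 4.97%, 0.179% and 2.88% of all genes. For TE, the background was 0.236%, 0.0% and 0.0971% of 14421 genes. Again edgeR called none of the 77, with an unadjusted p under 0.05 in 23, 2 and 17 (15.8%, 4.15% and 14.7% of all genes) and with 8, 0 and 5 called by DESeq2 (4.49%, 0.208% and 4.96% of all genes). The family medians stayed near 0: median log2 changes in polysome mRNA were -0.02, 0.01 and 0.05, and in TE -0.01, 0.01 and 0.05.

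The scatter around that median was wider at LF, as it was for all genes. The log2 departures of the 77 genes from the MF polysome mean had an SD of 0.47 and 0.68 in the LF libraries and 0.21 and 0.31 in the HF libraries. Over all genes the SD was larger in each, at 0.51 and 0.90 in the LF libraries and 0.45 and 0.46 in the HF libraries. The LF polysome libraries also differed more from each other. The median fold between replicates was 1.25 at LF, 1.07 at MF and 1.11 at HF, and 14 genes at LF, 1 at MF and 2 at HF were more than 1.5-fold apart (45.8%, 8.68% and 8.0% of all genes).

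The 3 genes with the smallest p in LF against MF had their lowest values in the LF libraries. Mrpl14, at the face where the subunits join, had 58.7 and 37.4 TPM at LF, against 125 and 118 TPM at MF, with 105 and 90.5 TPM at HF. Its LF libraries were below every other library of either fraction, and total mRNA ranged only between 79.3 and 94.5 TPM. The change was log2 -1.40 ± 0.269 in polysomes (SE, edgeR adjusted p = 0.124) and -1.35 ± 0.269 in TE (adjusted p = 0.0861).

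Mrpl52, a large subunit protein, had 49.7 and 67.5 TPM at LF, against 138 and 188 TPM at MF, with 116 and 101 TPM at HF in polysomes. Mrpl53, also of the large subunit, had 36.4 and 43.8 TPM at LF, against 86.4 and 102 TPM at MF, with 68.3 and 62.6 TPM at HF. In both, the groups did not overlap and HF lay between LF and MF, while total mRNA of Mrpl53 was between 49.4 and 68.0 TPM. Among all genes tested in polysome mRNA, LF lay wholly above MF for 24.9% and wholly below for 25.3%. The changes in LF against MF were -1.56 ± 0.331 (edgeR adjusted p = 0.136) and -1.27 ± 0.263 (adjusted p = 0.131).

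Other genes had their highest values at LF. Mrps30, a large subunit protein, had 66.0 and 69.2 TPM at LF, 42.2 and 45.8 TPM at MF and 43.6 and 39.9 TPM at HF in polysomes, with total mRNA between 25.0 and 28.5 TPM. Mrps18c, of the small subunit, had 220 and 290 TPM at LF, 144 and 127 TPM at MF and 163 and 155 TPM at HF. Both LF libraries stood above the other 4 in each gene, at 0.60 ± 0.203 (SE, edgeR adjusted p = 0.223) and 0.87 ± 0.244 (adjusted p = 0.178) in LF against MF. In HF against LF, Mrpl14 was at 1.09 ± 0.268, Mrpl12 at 0.68 ± 0.207 and Mrps30 at -0.66 ± 0.203 (SE, edgeR adjusted p 0.196 to 0.247). In HF against MF the smallest p belonged to Mrpl24 (0.62), Mrps12 (-0.83) and Mrps31 (0.59) in polysomes, each with an edgeR adjusted p of 0.948, and to Mrpl24, Mrps12 and Mrps35 in TE.

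The count of calls depended on the LF duplicates. Leaving out either LF polysome library leaves a single one at LF, which is then assumed to vary like the libraries of the other groups. In polysome LF against MF, 42 of the 77 genes were called without the first LF library, where 50.5% of all genes were called, and 10 without the second, where 6.83% were. In both of these fits and in the same direction, 8 genes (10.4%) were called, against 5.44% of all genes: Mrpl2, Mrpl12, Mrpl14, Mrpl52, Mrpl53, Mrpl54 and Mrps11 were lower and Mrps18c was higher at LF. For TE in LF against MF the counts were 43 and 8 (46.2% and 6.76% of all genes). Called in both fits, against 4.9% of all genes, were 8 genes: lower were Mrpl2, Mrpl12, Mrpl14, Mrpl52, Mrpl53 and Mrps11, and higher were Mrps30 and Mrps6.

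The direction of the departures ran with base composition. In polysome LF against MF, the median log2 change was 0.42 for the 15 genes under 46% GC in their transcripts, 0.19 for the 22 at 46% to 50%, -0.05 for the 20 at 50% to 54% and -0.60 for the 20 above 54%. Spearman's rho with GC was -0.63 across the 77 genes and -0.70 across 12560 protein-coding genes, given as descriptions since all genes share the libraries. Against the MF mean it was -0.46 in the first LF library and -0.73 in the second, and over protein-coding genes -0.17 and -0.83. Between the LF duplicates, second less first, rho was -0.65 across the 77 genes and -0.84 across protein-coding genes. In HF against MF it was -0.50 across the 77 genes. In total mRNA LF against MF it was -0.18. Mrpl14 (59.4% GC) and Mrpl52 (56.8%) were on the GC-rich side, and Mrps30 (44.2%) and Mrps18c (45.6%) on the AT-rich side, whereas Mrps6 (53.9%) was higher at LF with a GC content above the median of 50.1%. Whether GC has a part in these differences was not tested.

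**Figure D5:**
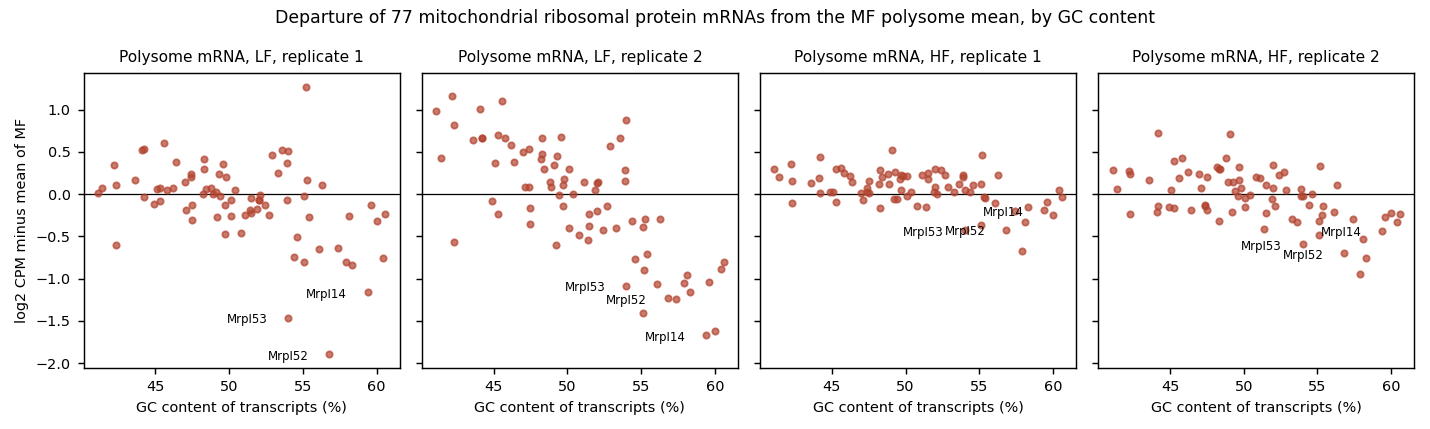
Log2 CPM of each of the 77 genes in a polysome library less the MF polysome mean (y axis) against the GC content of its transcripts in percent (x axis), for the 2 LF and the 2 HF libraries. In the second LF library the points slope down over the whole range (rho -0.73), while in the first (rho -0.46) the lowest points lie at 54% or above.

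With an offset per library for GC, fitted over all genes and chosen after seeing the data, 8 of the 77 genes were called in polysome LF against MF, against 4.97% of all genes. Mrpl36, Mrpl40, Mrps15, Mrps18c and Mrps6 were higher at LF, and Mrpl53 (-0.94), Mrpl57 (-0.90) and Mrps11 (-0.69) were lower. Mrpl14 then stood at -0.55, with an edgeR adjusted p of 0.126. In TE the only gene called in LF against MF was Mrps6, at 0.77, against 1.81% of all genes.

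The genes share features of position that their names do not carry. They lie on 17 chromosomes, with 11 on chromosome 11, 8 on chromosome 17, 7 on chromosome 6 and 6 on chromosome 7. A protein-coding gene on the opposite strand starts within 1000 bases of 33 of the 77 (42.9%), against 2080 of the 12998 protein-coding genes tested (16.0%). One such arrangement joins 2 members, Mrpl46 and Mrps11, whose starts on chromosome 7 are 412 bases apart on opposite strands. The spans of these 2 genes overlap, and their polysome over total mRNA ratios were 1.74 and 0.57.

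Promoter windows of 250 bases before to 50 after the start, from RefSeq on GRCm38.p6, were matched for 68 of the 77 genes (74 windows) and searched on both strands. CCGGAAG, the core bound by ETS family factors, was found in 25 windows (33.8%, against 8.86% of all 32851 windows). The core of the NRF-1 site (GCGCA, any base, then GCGC) was found in 13 (17.6%, against 4.6%), and AAGATGGC, the core of the YY1 site, in 12 (16.2%, against 2.75%). In total 42 windows (56.8%, against 14.7%) held at least 1 of the 3, TATAAA was found in 5 (6.76%, against 13.6%), and CCAAT in 39.2% against 37.4%. A match describes the letters only, and no binding was measured here. Windows of 120 bases from 4 genes are shown to give an example of each motif, with motifs on either strand in capitals and read toward the gene: Mrpl43 at chr19:45006443-45006562 (minus strand), with CCGGAAG in 2 places; Mrpl58 at chr11:115403632-115403751 (plus strand), with CCGGAAG near its start; Mrpl45, which anchors the mitoribosome to the inner membrane, at chr11:97315582-97315701 (plus strand), with 2 NRF-1 cores; and Mrpl36 at chr13:73330889-73331008 (plus strand), with the YY1 core in reverse.

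Mrpl43: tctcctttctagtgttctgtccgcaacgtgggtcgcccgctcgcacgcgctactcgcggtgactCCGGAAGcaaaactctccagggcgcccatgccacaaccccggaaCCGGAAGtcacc
Mrpl58: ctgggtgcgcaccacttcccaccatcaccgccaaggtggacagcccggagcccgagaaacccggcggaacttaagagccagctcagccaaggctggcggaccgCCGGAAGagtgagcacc
Mrpl45: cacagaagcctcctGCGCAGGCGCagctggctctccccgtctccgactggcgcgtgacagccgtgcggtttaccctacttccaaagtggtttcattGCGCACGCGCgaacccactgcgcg
Mrpl36: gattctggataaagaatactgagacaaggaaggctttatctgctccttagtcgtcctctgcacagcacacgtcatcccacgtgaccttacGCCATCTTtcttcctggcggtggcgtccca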

How the data were processed

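Poly(A) RNA of 12 libraries was analysed as deposited in 1 table per library. The authors trimmed paired reads, aligned them with Bowtie2 2.2.9 and quantified genes with RSEM 1.3.0 on mm10; the strand setting is not given in the sources used here. The deposited expected counts (estimated read pairs per gene) were rounded to whole numbers for tests. The deposited TPM served for levels, the authors' gene lengths (other unit, bases) for length checks, and FPKM was not used. No column of another series was present (0).

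Of 43432 identifiers, 42462 matched GENCODE M21. Tests used edgeR 4.0.16 (TMM, filterByExpr, robust quasi-likelihood, Benjamini-Hochberg over all genes) in R 4.3.3, in separate fits of total (6 libraries, 13912 genes) and polysome mRNA (6 libraries, 13433 genes), and a joint fit of all 12 (14421 genes) for TE and for polysome against total mRNA. Residual degrees of freedom were 3, 3 and 6. The study itself used DESeq2 for expression and another tool for TE; DESeq2 1.42.0 was tried here as an alternative, with other size factors, no filter, a replicate block, only the compared libraries, each library left out, and, added after seeing the data, GC offsets. SE is the log2 fold change divided by the square root of F. CPM ratios used a pseudocount of 0.1. Near copies were found with BLAST+ 2.17.0. The code was tested on simulated data.

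Genes named were those called (the 8 with the highest and lowest fold change where more than 15 were called), the 3 with the smallest p in each dose comparison, the 4 highest and 4 lowest by level and by polysome to total ratio, and members with a particular role; genes called only under an alternative were chosen after their values were seen. Members and lists were chosen with earlier results of these data known.
Samples with the same replicate number were not paired: correlations of their deviations from group means ran between -0.146 and 0.144 over 15 pairs of groups, above 0.1 in 2.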

Additional observations from a re-analysis of the deposited data

Results flagged for a closer look

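Counts were also assigned to a locus outside the comparisons. Mrpl23-ps1, annotated as a processed pseudogene and left out of the 77 genes, was at no less than 94.0 TPM in every total mRNA library, while Mrpl23 itself averaged 5.88 TPM. Mrpl23-ps1 was also higher in polysomes, at log2 1.21 over the 3 concentrations (edgeR adjusted p = 4.64e-07), and the sum of both loci had a polysome to total ratio of log2 1.19 ± 0.133 (SD over 6 polysome libraries), 2.28-fold. The 2 transcripts are largely identical, so the division of reads between the loci is uncertain, and which locus they came from was not tested.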

How the results depend on the processing

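Of 195 counts of called genes and family medians recomputed under the alternatives, 167 stayed within the limits set, 25 gave more calls, 2 fewer and 1 median moved; of 748 values of named genes, 672 kept their direction and their side of the threshold, 56 gained and 19 lost a call, and 1 reversed. With each library left out in turn, the median log2 fold change of polysome over total mRNA was 0.931 to 1.007 over the 3 concentrations. It was 0.862 to 0.955 at LF, 0.907 to 0.972 at MF and 0.928 to 0.991 at HF. With only the compared libraries, 36 genes were called higher at LF (11.5% of all genes). The TPM-based median was 0.686. The reversed value was Mrps21 in polysome over total mRNA, which lay between -0.129 (without polysome HF replicate 1) and 0.002 (without polysome HF replicate 2). Dose counts were less stable, and are given with the percentage of all genes called under the same setting. In polysome LF against MF, DESeq2 called 7 genes (4.97%), GC offsets 8 (4.97%) and no filter 5 (2.71%), and leaving out 1 library gave 0 to 42 (0.0144% to 50.5%). In HF against LF DESeq2 called 1 (2.88%), GC offsets 9 (11.4%) and leaving out 1 library 0 to 32 (0.0144% to 39.3%), and in HF against MF only the compared libraries gave 3 (5.34%) and leaving out 1 library 0 to 3 (0.0% to 5.68%). In TE, LF against MF gave 8 with DESeq2 (4.49%), 1 with GC offsets (1.81%), 2 with no filter (1.05%) and 0 to 43 with 1 library left out (0.0134% to 46.2%). HF against LF gave 5 (4.96%), 5 (8.7%) and, with 1 library left out, 0 to 35 (0.0134% to 37.6%). HF against MF gave 1 with only the compared libraries (1.52%) and 0 to 3 with 1 left out (0.0% to 2.99%). The highest counts came without polysome LF replicate 1; the cause was not tested. In total mRNA HF against LF the range was 0 to 1 (0.569% to 2.99%), the 0 coming without total HF replicate 1.

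The replicate block called 2 genes lower in polysome LF against MF, Mrpl14 and Mrpl52 (1.72% of all genes called), lost the lower call of Mrpl42 in polysome against total mRNA at HF (adjusted p = 0.0623), and moved no other count of calls in a comparison by over 1.5 times. With 3 residual degrees of freedom and a biological coefficient of variation of 0.231 in polysome mRNA, against 0.0433 in total mRNA, polysome changes had to be larger to pass.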
